A study of Mus musculus with 5 samples.

Results

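The genes described here encode the enzymes, small luminal proteins and membrane proteins of the lysosome, together with the subunits of the vacuolar proton pump (V-ATPase) that acidifies it. They were taken from the deposited gene table by name: 36 lysosomal genes given as a list and 21 genes whose symbols start with Atp6v or Atp6ap, which makes 57 of the 19221 genes in the table. By role they are 23 hydrolases, 4 luminal proteins that are not enzymes, 8 membrane proteins, the transcription factor gene Tfeb, 10 genes of the cytosolic V1 sector, 7 of the membrane V0 sector, 3 accessory proteins and the pseudogene Atp6v0c-ps1. Genes with at least 1 RPKM (reads scaled to gene length and library total) in at least 1 library were analysed, which kept 55 of the 57 and 12783 genes in all. The 2 left out were Manba, the beta-mannosidase gene, at 0.329 RPKM or less, and Atp6v1c2, at 0.210 RPKM or less.

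The tissue was caudate putamen, punched from male mice of the strain C57BL/6 at an age of 9 weeks. A small infarct had been made there by photothrombosis, in which light turns the injected dye rose bengal (100 mg/kg) into a trigger of clotting in the lit vessels; a fibre 3 mm below the dura gave 532 nm light at 30 mW for 2 min. Focal tissue of 6 animals was pooled into 1 library at each of 4 hours, 1 day, 3 days and 10 days. The sham library pooled punches of the left, opposite side of the mice, which had the fibre, the laser and later the same dye, with the light given first, and for this pool the sources used here give no number of animals. Every group is thus 1 library, no difference has a replicate check, and no p-value was computed; the 4 comparisons with sham share the sham library.

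Lysosomal hydrolases cut proteins, glycans and lipids delivered by endocytosis, phagocytosis and autophagy, and work at acid pH. The V-ATPase supplies that pH: its V1 sector hydrolyses ATP and turns a ring in the V0 sector, which moves protons across the membrane. Neurons also use the pump to load synaptic vesicles with transmitter, whereas microglia and macrophages, the phagocytes of injured brain, are rich in lysosomal enzymes. Tfeb encodes a factor that activates many lysosomal genes through a short promoter element, the CLEAR element, whose core is the palindrome CACGTG.

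The promoter stretches below are shown because this element is the one sequence feature the gene groups are known to share. RefSeq promoters on GRCm38.p6, each 250 bases before and 50 after a listed start, were found for 47 of the 57 genes. The letters TCACGTG, searched on both strands, were in the promoter of 14 of these 47 genes (29.8%), against 6.81% of the analysed genes with a promoter and 4.29% of all genes in the promoter table. By role they were in 7 of 21 hydrolases, 4 of 14 V-ATPase genes, 3 of 7 membrane proteins and 0 of 4 luminal non-enzymes. The longer palindrome TCACGTGA, which contains TCACGTG, was in 6 of the 47 (12.8%), against 2.16% of the analysed genes and 1.12% of all. The first 5 sequences belong to every gene with TCACGTG that was at least 2-fold higher than sham at day 3, and the other 4 to genes with it that were not, 2 of them V-ATPase subunits; they run 5′ to 3′ on the gene's strand, and capitals mark each CACGTG.
Lgmn: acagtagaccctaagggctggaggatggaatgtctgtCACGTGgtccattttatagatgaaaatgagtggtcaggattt
Naglu: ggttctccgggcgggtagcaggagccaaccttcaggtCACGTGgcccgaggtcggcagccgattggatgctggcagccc
Glb1: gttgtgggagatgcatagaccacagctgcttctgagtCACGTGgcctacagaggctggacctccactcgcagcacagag
Gla: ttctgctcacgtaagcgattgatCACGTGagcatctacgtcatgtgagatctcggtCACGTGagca
Atp6v0e: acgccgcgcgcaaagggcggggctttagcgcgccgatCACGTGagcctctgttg
Gaa: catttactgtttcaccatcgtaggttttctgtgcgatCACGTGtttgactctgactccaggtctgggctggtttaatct
Lamp1: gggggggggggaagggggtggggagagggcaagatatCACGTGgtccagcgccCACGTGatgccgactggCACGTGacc
Atp6v0d1: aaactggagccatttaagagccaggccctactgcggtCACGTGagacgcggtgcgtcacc
Atp6v1a: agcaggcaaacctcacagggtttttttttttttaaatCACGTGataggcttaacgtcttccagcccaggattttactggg

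In the order printed these windows lie at chr12:102439100-102439178 (minus strand), chr11:101069984-101070062 (plus), chr9:114400993-114401071 (plus), chrX:134601190-134601255 (minus), chr17:26676362-26676415 (plus), chr11:119267786-119267864 (plus), chr8:13159063-13159141 (plus), chr8:105566045-105566104 (minus) and chr16:44139348-44139427 (minus). In the GENCODE annotation of the same build, the windows of Glb1, Gla, Gaa and Lamp1 were upstream of the gene, those of Naglu, Atp6v0e and Atp6v0d1 were partly in an exon, and those of Lgmn and Atp6v1a were in an intron. The Lgmn window belongs to 1 of 2 listed starts. Gla held 2 copies of CACGTG in its 300 bases and Lamp1 held 4.

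The element was present both in genes with large folds at day 3 and in genes near 0. The 14 analysed genes with TCACGTG had a median log2 fold of 0.74, and the 31 analysed genes without it in the 300 bases had 0.69. At least 2-fold higher than sham were 5 of the 14 and 8 of the 31. A match of letters is a description of sequence and says nothing about binding in these tissues.

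At day 3 and day 10 9 of 22 hydrolases were called higher than sham, and of the 19 V-ATPase genes with Atp6 symbols 1 and 0 were. In what follows a fold is log2((stroke RPKM + 1) / (sham RPKM + 1)), which understates the differences of low genes, and a gene is called higher or lower at 1 or more, or -1 or less, which is 2-fold with the pseudocount. At day 3 the hydrolases had a median log2 fold of 0.84 and the V-ATPase genes of -0.01, and at day 10 the medians were 0.81 and -0.08. Neither group had a gene called lower at any of the 4 times.

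Over all 12783 genes, 9.04% were called higher at day 3 and 4.20% at day 10, with median folds of 0.12 and 0.07. Called lower were 0.618% at day 3 and 0.172% at day 10. Counted together, 15 of the 55 members were higher at day 3 and 13 at day 10. The counts of all members include the pseudogene Atp6v0c-ps1, which was called higher at day 3 and reached 1 RPKM only in that library. The V-ATPase counts leave it out.

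The difference between the median of the hydrolases and that of the V-ATPase genes was 0.85 at day 3 and 0.89 at day 10. It was -0.26 at 4 hours and -0.18 at day 1, when the V-ATPase median was above that of the hydrolases. At day 10 12 of the 22 hydrolases had a larger fold than Atp6v0e, which had the largest of the 19 V-ATPase genes; at day 3 there were 5. These 19 do not include Tcirg1, the gene of another a subunit, described below with folds of 1.62 and 1.70. Summed over their genes, hydrolases were at 152 RPKM in sham, 202 at 4 hours, then 128 at day 1, 419 on day 3 and 314 on day 10. V-ATPase genes summed to 861, 1277, 997, 1166 and 877 RPKM in the same order, so the pump's transcripts were the more abundant group in every library.

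**Figure D1:**
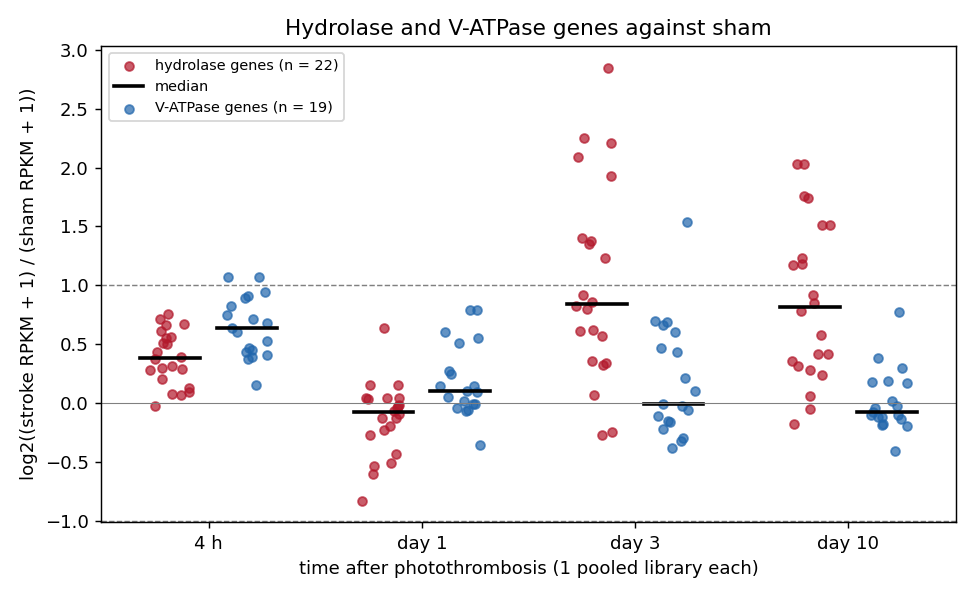
Log2 fold against sham (y axis, with a pseudocount of 1 RPKM) at each time after photothrombosis (x axis) for 22 hydrolase genes (red) and 19 V-ATPase genes (blue); each point is 1 gene, black bars are medians and dashed lines mark the 2-fold limit. The medians are 0.38 and 0.64 at 4 hours, and 0.84 and -0.01 at day 3; 1 V-ATPase gene, Atp6v0e, lies above the upper limit at day 3.

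Measured properties of the libraries move with these values. RPKM depends on all reads of a library, of which genes for ribosomal RNA, mitochondrial RNA and small RNA took 48.5% in sham and, in order of time, 34.6%, 43.4%, 35.8% and 43.6% in the stroke libraries. Median-of-ratios scaling divided out a log2 factor of 0.37 at 4 hours, then -0.11 at day 1, 0.14 on day 3 and 0.16 on day 10, and moved the median of all genes at 4 hours from 0.28 to 0.01. Scaled in this way, the hydrolases had medians of 0.08, -0.02, 0.71 and 0.69 at the 4 times and the V-ATPase genes had 0.28, 0.20, -0.14 and -0.23. The counts at day 3 were 9 and 1 as before.

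Markers of several cell types differed between the libraries as well. Summed over 10 microglial markers, the level was 75.8 RPKM in sham, 91.8 at 4 hours, then 58.4 at day 1, 366 on day 3 and 327 on day 10; 7 of the 10 were called higher at day 3 and 8 at day 10. The 10 monocyte and macrophage markers summed to 25.3, 18.2, 79.4, 153 and 288 RPKM, and 1 of them was at 0 at 4 hours. Of the 7 analysed, 5 were higher at day 3 and 4 at day 10; Lyz2 alone gave 97.9 RPKM at day 3 and 245 at day 10. Between day 3 and day 10, Lyz2 was the 1 of these 7 called higher, with a fold of 1.31. Arg1 was the 1 called lower, with -3.37, and the median was 0.17. Astrocyte markers summed to 204 RPKM in sham and 597 at day 3, endothelial markers to 69.3 and 132, and red blood cell markers to 3748 and 1328. Most of the endothelial sum came from Ly6c1 (43.2 RPKM in sham and 81.5 at day 3) and Cldn5 (22.1 and 45.7). Of the 4 endothelial markers analysed, 1 was called higher at day 3, with a median fold of 0.61 over the 4. Of the astrocyte sum, Gfap alone gave 102 RPKM in sham and 509 at day 3. The median fold of the 8 astrocyte markers at day 3 was -0.14, with 2 called higher and 0 lower. The 10 markers of medium spiny neurons, the main neurons of the caudate putamen, were detected in all libraries and summed to 1814 RPKM in sham and 2327, 905, 1384 and 1550 afterwards. In bulk tissue, fewer cells of a type and less RNA per cell cannot be told apart, and the part of these cell markers in the folds was not tested.

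**Figure D2:**
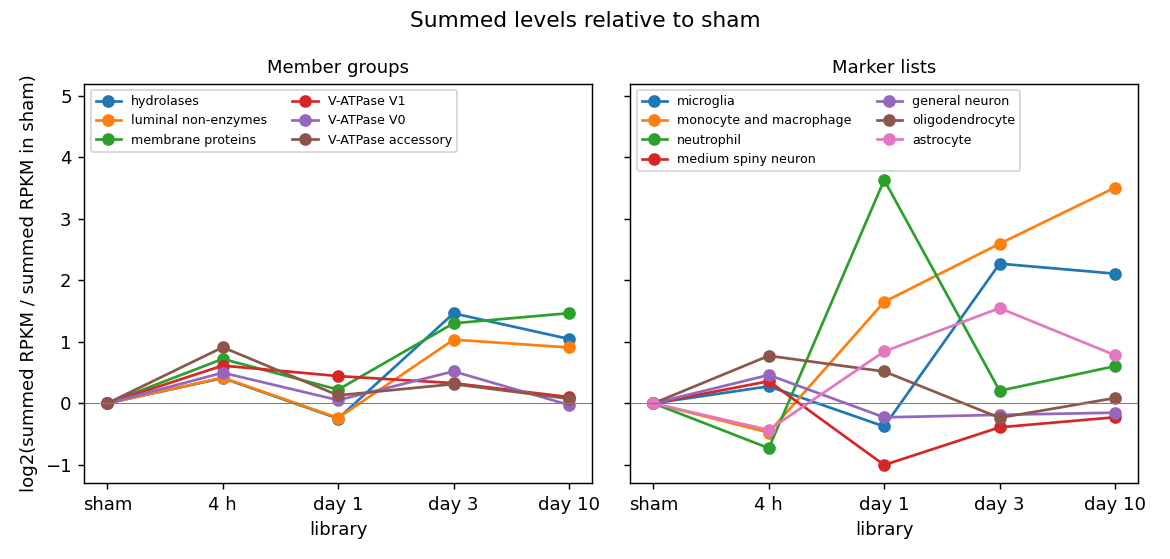
Log2 ratio of the summed RPKM of each group to its sum in sham (y axis) in the 5 libraries (x axis), for the member groups (left) and marker lists of cell types (right); each line is 1 group of genes. Hydrolases go from 152 RPKM in sham to 419 at day 3, microglial markers from 75.8 to 366, and V0 genes from 491 to 704.

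The hydrolase with the largest fold at day 3 was also among the most abundant ones before. Lgmn, which encodes legumain, an asparagine-specific endopeptidase, was at 23.8 RPKM in sham, 35.6 at 4 hours, then 26.5 at day 1, 178 on day 3 and 83.0 on day 10. Day 3 was its highest library, with a log2 fold of 2.85 and an RPKM ratio of 7.49 (95% counting interval 7.06 to 7.95); at day 10 the fold was 1.76. These intervals are exact conditional binomial intervals, cover counting error only and say nothing of differences between animals.

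The next 3 act on glycosaminoglycans, the sulphated sugar chains of the matrix. Gusb, beta-glucuronidase, was at 1.48 RPKM in sham, 1.65 at 4 hours, then 1.55 at day 1, 10.8 on day 3 and 7.29 on day 10. Naglu, which removes N-acetylglucosamine from heparan sulphate, was at 3.22, 3.13, 1.79, 18.6 and 16.2 RPKM in the same order. Galns, a sulphatase of keratan sulphate, was at 0.815, 0.985, 0.774, 6.75 and 3.08 RPKM. All of them were near the sham level at 4 hours and were called higher at day 3 and day 10. Their day-3 folds were 2.25 for Gusb (ratio 7.30, interval 6.15 to 8.71), 2.21 for Naglu (5.76, 4.94 to 6.76) and 2.09 for Galns (8.28, 6.13 to 11.4), where the low level of Galns gives the widest interval.

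The other 4 enzymes of this substrate class were not called at any time. Arsb, arylsulphatase B, had the day-3 fold nearest to 0 of all hydrolases: it was at 3.65 RPKM in sham, 6.59 at 4 hours, then 2.19 at day 1, 3.89 on day 3 and 4.76 on day 10, and its highest library was that of 4 hours. Ids, the iduronate sulphatase, had a day-3 fold of -0.27, Idua, the iduronidase, 0.61, and Sgsh, the heparan sulphamidase, 0.36. The median of the 7 genes for glycosaminoglycans was 0.61 at day 3 and 0.42 at day 10, below that of the hydrolases as a whole.

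Enzymes of glycosphingolipid and sphingolipid breakdown had a median of 0.86 at day 3 over 7 genes, with 3 called higher. Hexa, the alpha subunit of beta-hexosaminidase, was at 11.9 RPKM in sham, 13.9 at 4 hours, then 10.0 at day 1, 48.5 on day 3 and 51.7 on day 10, so that both late libraries stood above the other 3. Its folds were 1.93 at day 3 and 2.03 at day 10. Gla, alpha-galactosidase, had a fold of 1.40 at day 3 and 0.78 at day 10, and Glb1, beta-galactosidase, 1.38 and 1.23. Neu1 (sialidase), Asah1 (acid ceramidase), Arsa (arylsulphatase A) and Smpd1 (acid sphingomyelinase) had day-3 folds of 0.86, 0.62, 0.34 and 0.32 and were not called.

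In the remaining substrate classes, each had 1 gene called higher at day 3. Lipa, lysosomal acid lipase, had folds of 1.35 at day 3 and 1.18 at day 10, and Pla2g15, the lysosomal phospholipase, 0.82 and 1.51. Of the glycoprotein and glycogen enzymes, Fuca1 (fucosidase) had 1.23 and 0.92 and Man2b1 (alpha-mannosidase) 0.92 and 1.51. Gaa, which degrades glycogen, was the most abundant hydrolase in sham, at 37.4 RPKM, and had folds of -0.83 at day 1, -0.25 at day 3 and -0.18 at day 10. Besides Lgmn, the enzymes acting on proteins and thioesters were Tpp1, tripeptidyl peptidase, with 0.80 and 0.58, and Ppt1, palmitoyl-protein thioesterase, with 0.57 and 0.42.

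**Figure D3:**
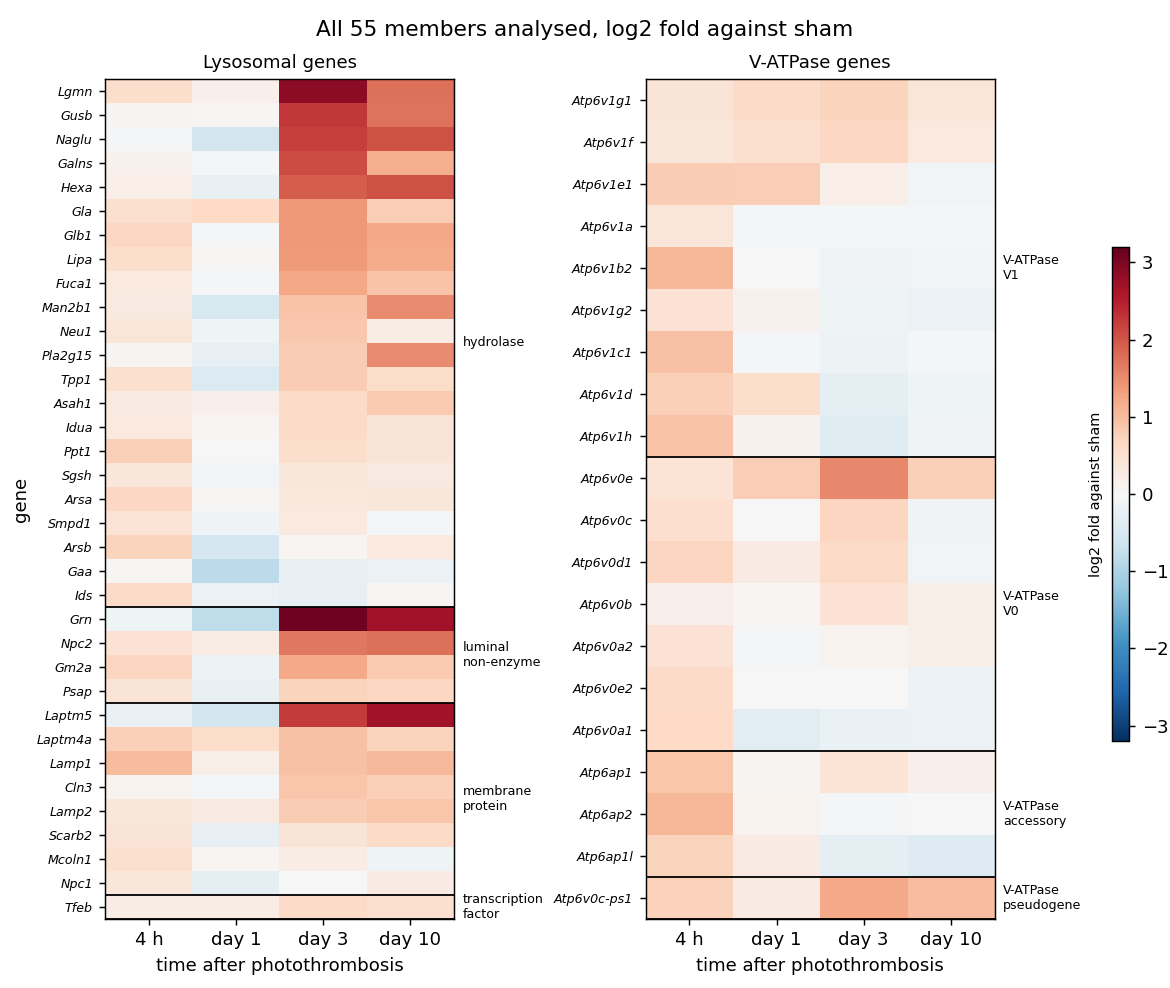
Log2 fold against sham (colour, red higher and blue lower) of the 55 analysed members (rows, ordered by role and then by the fold at day 3) at the 4 times (columns). Red at day 3 and day 10 gathers in the upper part of the left panel, with Grn at 3.12 and Lgmn at 2.85 at day 3, while in the right panel 14 of the 19 pump genes have their highest value at 4 hours and 5, among them Atp6v0e at 1.54, at day 3.

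Luminal proteins that are not enzymes had a median fold of 1.45 at day 3 and 1.31 at day 10, with 3 and 2 of 4 called higher. Grn, which encodes progranulin, the precursor of lysosomal granulins, was at 12 RPKM in sham, 10.8 at 4 hours, then 6.44 at day 1, 112 on day 3 and 82.9 on day 10. It had the largest fold of all members at day 3, 3.12 (ratio 9.32, interval 8.71 to 9.98), and its lowest library was that of day 1. Npc2, a carrier that hands cholesterol on inside the lysosome, was at 12.2, 17.2, 14.5, 41.7 and 44.2 RPKM, a fold of 1.69 at day 3.

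The other 2 luminal genes encode activators of sphingolipid hydrolases. Gm2a, the activator with which beta-hexosaminidase degrades ganglioside GM2, was at 13.2 RPKM in sham, 21.8 at 4 hours, then 11.5 at day 1, 31.8 on day 3 and 24.6 on day 10, a fold of 1.21 at day 3. Psap, the precursor of the saposins, was at 266, 356, 224, 435 and 417 RPKM. It was the most abundant member in every library and was never called, with 0.71 at day 3.

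Of the 8 lysosomal membrane proteins, 1 was called higher at day 3 and 2 at day 10 (1 after scaling). Of all genes, 9.04% and 4.20% were called higher at these times. Laptm5, a membrane protein of blood-derived and microglial lysosomes, was at 21.7 RPKM in sham, 18.6 at 4 hours, then 14.2 at day 1, 106 on day 3 and 144 on day 10. Its folds were 2.24 and 2.68, and day 10 was its highest library. Laptm4a, its widely expressed relative, was at 41.5, 71.3, 62.5, 80.4 and 68.8 RPKM and was not called at any time, with 0.94 at day 3.

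Lamp1, an abundant glycoprotein of the lysosomal membrane, was at 41.3 RPKM in sham, 83.5 at 4 hours, then 47.3 at day 1, 79.6 on day 3 and 85.8 on day 10. It lay at the limit at 3 of the 4 times: 1.00 at 4 hours, just short of a call, 0.93 at day 3 and 1.04 at day 10. After median-of-ratios scaling its fold at day 10 was 0.88, which ended the call. Cln3, a multi-pass membrane protein lost in a childhood storage disease, was at 1.00, 1.17, 0.930, 2.68 and 2.41 RPKM. The gene nearest to 0 at day 3 was Npc1, the membrane partner of Npc2 in cholesterol export, at 1.88 RPKM in sham, 2.73 at 4 hours, then 1.32 at day 1, 1.87 on day 3 and 2.44 on day 10.

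The pair Npc1 and Npc2 thus had day-3 folds of -0.01 and 1.69. Lamp2, Scarb2 (the receptor that carries beta-glucocerebrosidase to lysosomes) and Mcoln1 (a calcium channel) had 0.80, 0.42 and 0.24. Tfeb was at 1.85 RPKM in sham, 2.37 at 4 hours, then 2.35 at day 1, 3.33 on day 3 and 3.05 on day 10; its largest fold was 0.60, at day 3, and it was not called.

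**Figure D4:**
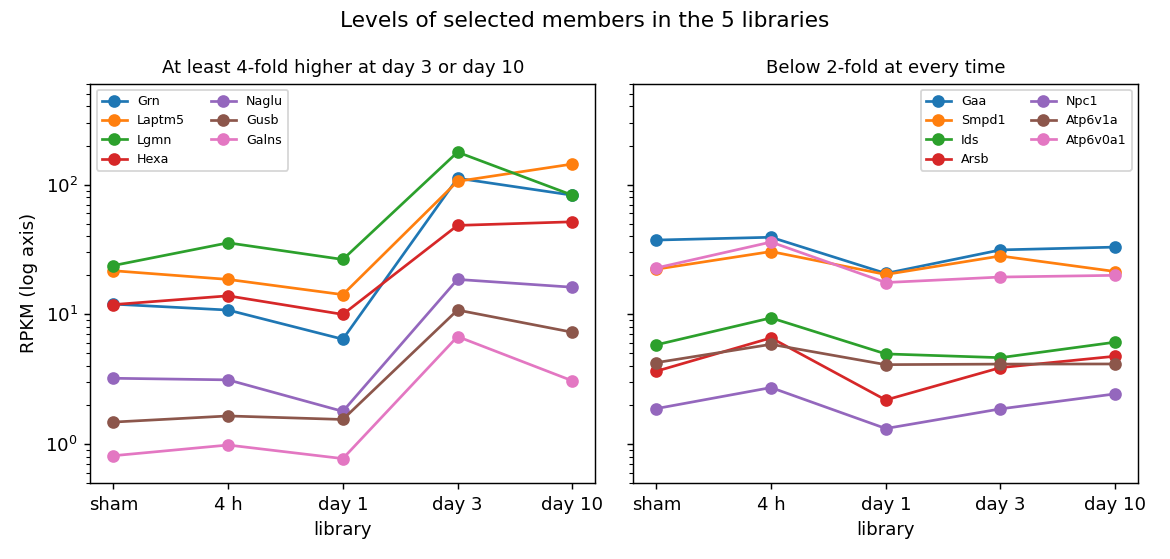
RPKM (y axis, log axis) in each library (x axis) for the 7 members at least 4-fold higher with the pseudocount at day 3 or day 10 (left) and for 7 members that were below 2-fold at every time, chosen after their values were seen (right); each line is 1 gene. The genes on the left stay near or below their sham level until day 1 apart from Lgmn at 4 hours and then separate, as Grn does from 6.44 RPKM at day 1 to 112 at day 3, while those on the right are highest at 4 hours.

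At 4 hours the pump genes were the higher group. All 19 with Atp6 symbols had a fold above 0 (18 after scaling). So had 21 of 22 hydrolases (15 scaled) and 9981 of all 12783 genes (6538 scaled). The median of the 19 was 0.64 (0.28 scaled) against 0.38 (0.08 scaled) for the hydrolases and 0.28 (0.01 scaled) for all genes. Tcirg1, not among the 19, had a fold of -0.33. Called higher were 2 members, both of the V-ATPase, where 2.20% of all genes were called higher and 1.09% lower. Atp6v1b2, the widely expressed B isoform of the catalytic head, was at 32.9 RPKM in sham, 70.2 at 4 hours, then 33.4 at day 1, 30.4 on day 3 and 31.1 on day 10. Atp6ap2, the prorenin receptor and an assembly partner of the pump, was at 3.47, 8.39, 3.80, 3.30 and 3.52 RPKM. For both of them the 4-hour library stood apart from 4 libraries that lay close together.

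Their folds at 4 hours were 1.07 each, with ratios of 2.13 (interval 2.05 to 2.22) for Atp6v1b2 and 2.42 (2.05 to 2.86) for Atp6ap2. Median-of-ratios scaling brought them to 0.70 and 0.74, so neither was called, and 0 members were. Markers of choroid plexus and ependyma summed to 743 RPKM in this library against 81.9 in sham, and oligodendrocyte markers to 1861 against 1089. General neuron markers summed to 508 against 369 and medium spiny neuron markers to 2327 against 1814. These sums are not scaled. After median-of-ratios scaling, the median folds of the analysed genes of these lists were 1.20, 0.47, 0.12 and -0.06 in the same order. The part of any of these markers in the folds of the members was not tested.

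At day 1 no member was called in either direction, where 3.33% of all genes were called higher and 1.35% lower. Folds ran from -0.83 for Gaa to 0.79, a value shared by Atp6v0e and Atp6v1e1. The sum of the neutrophil markers was highest here, at 155 RPKM against 12.5 in sham, of which S100a8 gave 53.0 and S100a9 93.4. Of the 4 analysed, 3 were called higher at day 1. Csf3r was not, at 1.21 RPKM in sham and 1.26 at day 1, and it was highest at day 10, at 8.89.

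Within the pump, the V1 and V0 sectors had different medians at day 3, -0.11 over 9 genes and 0.47 over 7. Their ranges overlapped, from -0.38 to 0.70 for V1 and from -0.22 to 1.54 for V0. V0 was not the higher sector at the other times. The V1 and V0 medians were 0.75 and 0.53 at 4 hours, 0.14 and -0.01 at day 1, and -0.08 and -0.10 at day 10. The V1 genes with the largest day-3 folds in size were 2 of positive and 2 of negative sign. Atp6v1g1, the widely expressed G subunit of the peripheral stalk, was at 56.5 RPKM in sham, 75.7 at 4 hours, then 86.4 at day 1, 92.5 on day 3 and 73.6 on day 10, and Atp6v1f, the F subunit of the rotor, was at 88.7, 115, 127, 141 and 109 RPKM. In both the 4 stroke libraries were above sham, with folds of 0.70 and 0.66 at day 3, below the limit.

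Atp6v1h, the H subunit that regulates the pump, was at 3.74 RPKM in sham, 7.92 at 4 hours, then 4.24 at day 1, 2.64 on day 3 and 3.37 on day 10. Atp6v1d, the D subunit of the rotor shaft, was at 13.2, 22.8, 19.7, 10.4 and 11.8 RPKM. Both were highest at 4 hours and lowest at day 3, with folds of -0.38 and -0.32, and the gene nearest to 0 was Atp6v1a, the catalytic A subunit, at 4.25 RPKM in sham, 5.88 at 4 hours and 4.10, 4.14 and 4.15 afterwards. Atp6v1e1, the E subunit, was at 44.1 RPKM in sham, 78.8 at 4 hours, then 76.7 at day 1, 51.0 on day 3 and 40.9 on day 10.

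Of the 7 V0 genes with Atp6 symbols, Atp6v0e was the 1 called higher at day 3. This small e subunit was at 10.6 RPKM in sham, 14.6 at 4 hours, then 19.0 at day 1, 32.7 on day 3 and 18.7 on day 10, a fold of 1.54 at day 3 and 0.77 at day 10. Atp6v0c, the c subunit that forms the proton-carrying ring, was at 193, 278, 192, 311 and 178 RPKM. Its folds were 0.69 at day 3 and -0.12 at day 10.

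The next V0 genes were near 0.5 at day 3. Atp6v0d1, the d subunit that joins ring and rotor, was at 66.4 RPKM in sham, 107 at 4 hours, then 78.9 at day 1, 101 on day 3 and 61.9 on day 10, and Atp6v0b, another ring protein, was at 107, 119, 111, 148 and 122 RPKM. Their day-3 folds were 0.60 and 0.47. Of the accessory proteins, Atp6ap1 was at 40.6 RPKM in sham, 75.8 at 4 hours, then 43.3 at day 1, 55.1 on day 3 and 45.6 on day 10, and its relative Atp6ap1l at 8.07, 13.9, 9.92, 6.36 and 5.81 RPKM.

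Atp6v0c-ps1, a pseudogene of the c subunit, was at 0 RPKM in sham, 0.658 at 4 hours, then 0.186 at day 1, 1.33 on day 3 and 0.990 on day 10. It was called higher at day 3, the only library in which it reached 1 RPKM. A count of 0 in sham allows up to 3 read pairs (6 reads, 0.288 RPKM). The day-3 value, from 26 reads, was 4.61 times that limit, a ratio that leaves out the counting error of the day-3 reads. The sequence of the pseudogene resembles that of Atp6v0c, so its reads may come from that gene, which was far more abundant in every library.

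Several pump subunits exist as isoforms from separate genes, and the neuron-rich isoform was the more abundant one of the a and e pairs and, in sham and at 4 hours, of the G pair. Atp6v1g2, the neuronal G isoform, was at 62.5 RPKM in sham, 86.0 at 4 hours, then 68.9 at day 1, 56.1 on day 3 and 54.5 on day 10. The ratio of Atp6v1g1 to Atp6v1g2 was 0.905 in sham, 0.880 at 4 hours, then 1.25 at day 1, 1.65 on day 3 and 1.35 on day 10, so the order of the pair turned between 4 hours and day 1. A ratio within a library does not depend on how the library was scaled.

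The e pair moved the same way. Atp6v0e2, the brain-enriched e isoform, was at 88.1 RPKM in sham, 134 at 4 hours, then 87.5 at day 1, 87.6 on day 3 and 76.6 on day 10, and its day-3 fold of -0.01 was the nearest to 0 among the V0 genes. The ratio of Atp6v0e to Atp6v0e2 was 0.120 in sham, 0.109 at 4 hours, then 0.217 at day 1, 0.373 on day 3 and 0.244 on day 10. Atp6v0e2 stayed the more abundant of the pair in all 5 libraries.

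The a subunit, whose isoforms direct the pump to different membranes, showed the widest shift. Atp6v0a1, the isoform of synaptic vesicles, was at 22.8 RPKM in sham, 36.1 at 4 hours, then 17.6 at day 1, 19.4 on day 3 and 20.0 on day 10, and Atp6v0a2 at 3.26, 4.90, 3.07, 3.58 and 3.84 RPKM. Tcirg1, which encodes the a3 isoform of osteoclasts and macrophages and is not caught by the Atp6 symbols, was at 2.02, 1.40, 1.80, 8.24 and 8.80 RPKM. The ratio of Tcirg1 to Atp6v0a1 was 0.0884 in sham, 0.0387 at 4 hours, then 0.103 at day 1, 0.425 on day 3 and 0.440 on day 10, and that of Atp6v0a2 to Atp6v0a1 lay between 0.136 and 0.192, with 0.143 in sham and 0.185 at day 3.

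The C subunit had its second isoform at trace level. Atp6v1c1 was at 11.5 RPKM in sham, 23.0 at 4 hours, then 11.0 at day 1, 10.2 on day 3 and 11.1 on day 10, and Atp6v1c2 was at 0.123, 0.210, 0.0596, 0.0435 and 0.0766 RPKM, under the floor throughout. The ratio of Atp6v1c1 to Atp6v1c2 was larger at day 3 than in sham as well, and rests on these trace values. The part of the cell markers given above in the isoform ratios was not tested.

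**Figure D5:**
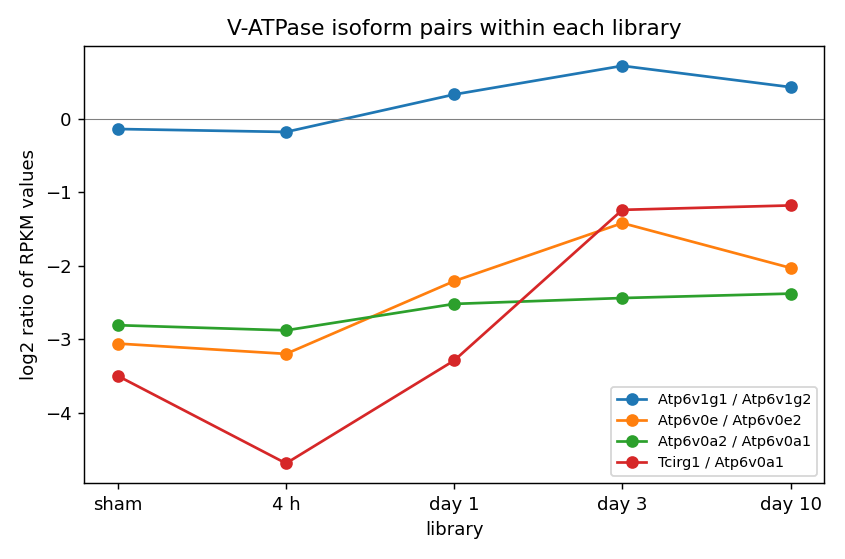
Log2 ratio of the RPKM of 2 isoform genes within each library (y axis, 0 is equal abundance) across the 5 libraries (x axis); each line is 1 pair. The ratios of Tcirg1 to Atp6v0a1, Atp6v0e to Atp6v0e2 and Atp6v1g1 to Atp6v1g2 are larger at day 3 than in sham (-1.24 against -3.50, -1.42 against -3.06 and 0.72 against -0.14).

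Set against day 1 in place of sham, 15 members were called higher at day 3 and 0 lower, where 7.46% of all genes were higher and 0.939% lower. They were 11 of 22 hydrolases, 3 of 4 luminal proteins and Laptm5, and none of the 19 V-ATPase genes with Atp6 symbols. Grn had the largest of these folds, 3.93, followed by Laptm5 and Naglu, each at 2.81. The medians were 1.04 for the hydrolases and 0.01 for the 19 V-ATPase genes. Tcirg1, not among the 19, had a fold of 1.72. After scaling, Atp6v1d (-0.87 as deposited) was the 1 V-ATPase gene called lower.

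Between day 3 and day 10, 0 members were called higher and 1 lower, where 0.626% of all genes were higher and 2.77% lower. That gene was Lgmn, with a log2 fold of -1.09, though its level at day 10 was still above sham. Galns was just inside the limit at -0.93. Of the 22 hydrolases, 8 had values above 0, and the median was -0.16. These 8 were Pla2g15 (0.69), Man2b1 (0.59), Ids (0.33), Arsb (0.24), Asah1 (0.23), Hexa (0.09), Gaa (0.07) and Arsa (0.03). Highest at day 10 were 4 hydrolases, 1 luminal protein and 4 membrane proteins, and highest at day 3 were 11, 3 and 2. None of the 19 V-ATPase genes with Atp6 symbols was highest at day 10, while 14 were highest at 4 hours (10 after scaling). Tcirg1, not among the 19, was highest at day 10, at 8.80 RPKM against 8.24 at day 3.

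Among other genes of the pathway, the lists of degradative enzymes had the larger medians. The share of all genes called higher was 9.04% at day 3 and 4.20% at day 10. Of 22 other lysosomal hydrolases analysed, 9 were called higher at day 3 and 0 lower, with a median of 0.88; among them Rnaset2a, a ribonuclease, had a fold of 1.94. Of 11 cathepsins, the lysosomal proteases, 8 were higher, with a median of 1.96. Ctsd was at 169 RPKM in sham, 175 at 4 hours, then 122 at day 1, 1631 on day 3 and 1490 on day 10, and Ctsz had a fold of 3.00.

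Genes of the lysosomal membrane, of enzyme delivery and of its control had smaller medians. Of 30 other membrane proteins and transporters, 6 were called higher at day 3, with a median of 0.40, led by Cd68 (3.94) and Cd63 (2.44), both abundant in phagocytes. Of 12 genes of enzyme sorting and maturation, Nagpa, which uncovers the mannose 6-phosphate tag, was higher (1.03) and Sort1, a sorting receptor, was lower (-1.14), with a median of 0.06. Of 16 genes of the MiT/TFE family and of mTORC1 at the lysosome, none was called at day 3, and the largest fold was 0.97 for Lamtor4, a Ragulator subunit, followed by Lamtor1 at 0.87.

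The remaining lists had medians near the 0.12 of all genes. Of 8 genes for the a3 subunit and pump assembly, with a median of 0.18, Tcirg1 alone was higher (1.62), and the next, Tmem199, an assembly factor, had 0.49. Of 17 autophagy genes, Gabarap, which couples to autophagosome membranes, was higher (1.08), the next was Map1lc3b at 0.75, and the median was 0.15. At day 10 the counts of genes called higher were 9 of 22 hydrolases, 7 of 11 cathepsins, 3 of 30 membrane proteins, 1 of 8 in the a3 and assembly list (Tcirg1, 1.70), and 0 in the sorting, MiT/TFE and autophagy lists.

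Exons of 16 members overlap a gene on the opposite strand, among them Grn, Hexa, Lamp1, Cln3, Npc1, Atp6v1h and Atp6v1g2, and those of Glb1 overlap Tmppe on the same strand. The sources used here do not say if counting used strand, and the reads of such pairs cannot be told apart.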

How the data were processed

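Total RNA of 5 pooled libraries was compared. Per the submitters' processing notes, Trimmomatic 0.36, HISAT2 2.1.0 and StringTie 1.3.4d were used with GRCm38 and no stated role or annotation version. An RPKM value per gene and library was deposited, per the file headers. They also deposited log2 folds, among them GFOLD values at the setting 0.01, a log2 fold shrunk towards 0. The p-values and false discovery rates they deposited were not used, since no header or label names the test.

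RPKM was used as deposited. RPKM times exon length (GENCODE mouse release 21, which held 19179 of 19221 identifiers) gave whole reads within 0.02 for 90.4% to 90.5% of values below 5000 reads, and totals of 42261796 to 48013851 reads per library. Counting intervals (95%) use reads divided by 2, since both mates of a pair seem to be counted; they cover counting error only, and were not computed for Atp6v0e, Atp6v1c1, Lipa and Npc1, whose reads were not whole. Python 3.11.15, pandas 2.3.3 and scipy 1.17.1 were used. Calls were also run on simulated libraries with counting noise only, in which genes well above the floor had changes well past the limit. That run does not test calls near the limit, low genes or differences between animals. Values in all libraries are printed for the 4 members of largest fold at day 3 and the 1 nearest 0 in each role, members past the limit at 4 hours or day 1, Tfeb and pump isoforms; other lists are described by counts, median and 2 leading genes, of which 1 is not reported here. Members, lists and alternatives were chosen with earlier results of these data known.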

Additional observations from a re-analysis of the deposited data

How the results depend on the processing

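No paired analysis was possible because each group is 1 pooled library, and for the same reason no replicate could be left out. Of the 88 values computed under the alternatives for the counts of members and for the differences between hydrolases and V-ATPase genes, 73 stayed within 1.5 times the count or, for differences, moved by less than the counting intervals of the genes at the medians, and 15 did not. All 15 were counts. The difference at day 1 was small, -0.18, and became -0.03 with the authors' deposited GFOLD, while that at day 3 ran from 0.79 to 0.96 and that at day 10 from 0.85 to 1.14. The 2 members called higher at 4 hours became 5 with a pseudocount of 0.1, 4 with 0.5, 20 with a 1.5-fold limit, and 0 with median-of-ratios scaling, with trimmed-mean scaling or without ribosomal RNA, mitochondrial and small RNA genes. The 0 at day 1 became 2 with a pseudocount of 0.1 and 4 with a 1.5-fold limit. With that limit, 31 members were higher at day 3, 24 at day 10 and 26 at day 3 against day 1. The 1 member lower at day 10 than at day 3 became 2 with either smaller pseudocount, 0 without those RNA genes and 7 with the 1.5-fold limit. Of the 240 values for single members past the limit, 228 kept their call and 12 fell short of it without changing sign; besides Atp6v1b2, Atp6ap2 and Lamp1 these were Gm2a (0.91) and Fuca1 (0.94) at day 3 without those RNA genes. In the authors' deposited table, GFOLD at the same limit gave 2, 0, 18 and 15 higher members at the 4 times. Depth limits the low genes most, as the interval of Galns shows, and differences between animals cannot be estimated.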
